A study of Branchiostoma lanceolatum with 8 samples.

Results

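ATF3, ATF4, XBP1 and HSP90B1 belong to the machinery with which cells answer unfolded proteins and other stress. They were followed here in ectodermal explants, pieces of the outer embryonic layer, from the lancelet Branchiostoma lanceolatum (amphioxus), a chordate without vertebrae. The genes were taken by name: a row was kept where the symbol that the deposited tables pair with its identifier equalled one of the 4 names. Each name had a single row in both tables, ATF3 as BL05149, ATF4 as BL12507, XBP1 as BL24731 and HSP90B1 as BL18009, so 4 genes of the 18998 listed in either table were studied. The 8 libraries formed 4 groups of 2: Activin-treated and control explants at 19 hours post fertilization (hpf), and Activin-treated and control explants at 11 hpf. Treated explants received human recombinant Activin, a signalling protein related to TGF-beta, at 50 ng/mL. Libraries held poly(A) RNA, and each replicate was a mixture of explants from different fertilizations, so a replicate is a pool and not an animal.

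The unfolded protein response starts in the endoplasmic reticulum (ER), where secreted and membrane proteins fold. In mammals, 3 sensors in the ER membrane start it. The kinase PERK (gene EIF2AK3) slows general translation and thereby favours the translation of ATF4, a bZIP transcription factor of amino acid supply and stress, which in turn activates ATF3, a bZIP factor induced by many kinds of stress. The nuclease IRE1 (ERN1 and ERN2) splices the XBP1 transcript into the form that encodes an active factor of ER expansion and secretion. ATF6 is released by the proteases MBTPS1 and MBTPS2 in the Golgi. HSP90B1, the HSP90 chaperone of the ER lumen, is a target of this response. Gene counts record neither the splicing of XBP1 nor the translation of ATF4, on which their activity depends.

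Values come from 1 table of comparisons per time. At 19 hpf 16733 genes are listed and at 11 hpf 15793, and 13528 genes are shared. Values per library were not analysed here, so the depth and the spread of single libraries are unknown, and the authors' standard error stands in for that spread. Each fold change is given on the log2 scale, Activin over control, with that error after ±, and a gene was called at an adjusted p below 0.05, two-sided, by the Wald test with Benjamini-Hochberg adjustment over the whole table. The headers do not name the numerator. The sign was settled with LEFTY2, CHRD and GSC, genes that Nodal and Activin switch on in vertebrate embryos: all had positive values, between 2.77 and 6.92, so positive values are taken to mean higher in Activin. Group levels are means of normalized counts, recovered from each gene's overall mean and fold change in the deposited tables with equal weight for both groups. They are not per length, so they were compared between groups and not between genes.

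Many genes differed between Activin and control explants. At 19 hpf 46.4% of genes were called, 18.7% higher and 27.7% lower, and at 11 hpf 36.6%, 12.0% higher and 24.6% lower. Among genes with a mean of 100 or more normalized counts the called share was 63.1% at 19 hpf and 55.6% at 11 hpf. The split depended on the scaling: 59.7% of calls at 19 hpf and 67.2% at 11 hpf were lower as deposited, 37.1% at 19 hpf and 35.2% at 11 hpf under total-count scaling, and 85.2% at 19 hpf and 78.7% at 11 hpf when cytosolic ribosomal protein genes were centred on 0. The explants carried markers of ectoderm and epidermis, and in Activin most of these were lower: 8 of 11 rows at 19 hpf, with 2 higher and a summed mean of 41921 in Activin and 785089 in control, and 8 of 10 at 11 hpf, with 2 higher and sums of 17161 in Activin and 359096 in control. Neural markers were mostly higher, 8 of 13 rows at 19 hpf with sums of 59403 in Activin and 18642 in control, and 7 of 11 at 11 hpf with sums of 55962 in Activin and 20146 in control, with 2 lower at each time. Mesoderm and muscle markers summed to 3327 in Activin and 702 in control at 19 hpf, 3 of 9 higher and 0 lower, and to 1126 in Activin and 828 in control at 11 hpf, 1 of 8 higher and 0 lower. Endoderm markers summed to 2621 in Activin and 4303 in control at 19 hpf, 3 of 7 higher and 1 lower, and to 664 in Activin and 350 in control at 11 hpf, 1 of 5 higher and 1 lower. Germline markers summed to 9638 in Activin and 4017 in control at 19 hpf, 4 of 8 higher and 1 lower, and to 8293 in Activin and 5591 in control at 11 hpf, 4 of 8 higher and 0 lower. The part of these shifts in the results below was not tested, and in bulk RNA fewer cells of a type and less RNA per cell cannot be told apart.

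At 19 hpf ATF3, XBP1 and HSP90B1 fell in Activin explants and ATF4 was not called, so 3 of the 4 genes were called, beside 46.4% of all genes. All 4 had a mean of 100 or more normalized counts at 19 hpf, and 63.1% of such genes were called. ATF3 had a rebuilt mean of 88.5 normalized counts in Activin and 1073 in control. The authors' deposited table gave it a log2 fold change of -3.60 ± 0.38, 12.1-fold lower with a 95% interval of 7.24 to 20.3, and a Wald test adjusted p of 4.7e-20. A lower value was found for 12.9% of all genes. HSP90B1 stood at 383 normalized counts in Activin and 1868 in control. Its value in the authors' deposited table was -2.29 ± 0.35, 4.88-fold lower with an interval of 3.02 to 7.90 (Wald test, adjusted p = 8.3e-10), with 22.9% of genes further down.

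XBP1 had 404 normalized counts in Activin and 1461 in control at 19 hpf. The authors' deposited table gave -1.85 ± 0.34, 3.61-fold lower with an interval of 2.27 to 5.74 (Wald test, adjusted p = 3.3e-07), and 26.2% of genes lay further down. ATF4 had 10307 normalized counts in Activin and 14358 in control. Its log2 fold change in the authors' deposited table was -0.48 ± 0.31 (Wald test, adjusted p = 0.19). The 95% interval of ATF4 ran from -1.08 to 0.12 and so held 0, whereas the intervals of the other 3 genes lay wholly below 0.

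At 11 hpf ATF4 rose and XBP1 fell in Activin explants, while ATF3 and HSP90B1 were not called. These are 2 of 4 genes, beside 36.6% of all genes. Of genes with a mean of 100 or more normalized counts 55.6% were called, and ATF3 did not reach that mean. ATF4 had 1726 normalized counts in Activin and 195 in control. The authors' deposited table gave a log2 fold change of 3.14 ± 0.39, 8.83-fold higher with an interval of 5.20 to 14.98 (Wald test, adjusted p = 1.1e-14), and 3.93% of genes lay further up. XBP1 had 181 normalized counts in Activin and 1484 in control. It lay at -3.04 ± 0.44 in the authors' deposited table, 8.21-fold lower with an interval of 4.55 to 14.8 (Wald test, adjusted p = 3.5e-11), with 16.4% of genes further down. The branch factors ATF4 and XBP1 therefore moved in opposite directions in the same explants.

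HSP90B1 had 135 normalized counts in Activin and 167 in control at 11 hpf. Its log2 fold change in the authors' deposited table was -0.31 ± 0.50 (Wald test, adjusted p = 0.67), with an interval from -1.28 to 0.67. ATF3 was barely expressed, at 16.3 normalized counts in Activin and 11.1 in control, and its value of 0.55 ± 1.29 in the authors' deposited table (Wald test, adjusted p = 0.77) had an interval from -1.98 to 3.08. That interval holds both a fall and a rise of ATF3, so at these counts the direction of any change is unknown.

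**Figure D1:**
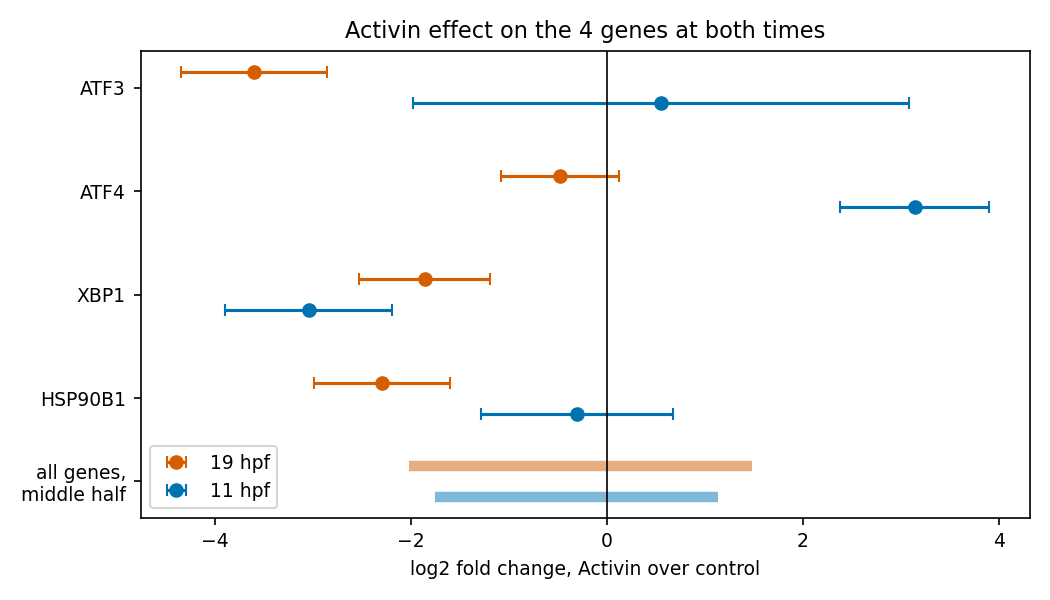
Log2 fold change of Activin over control (x axis) for ATF3, ATF4, XBP1 and HSP90B1 at 19 and 11 hpf, with points at the deposited values, bars for 95% intervals from the deposited standard errors, and thick lines for the central 50% of all genes (from -2.02 to 1.48 at 19 hpf and from -1.75 to 1.13 at 11 hpf). The whole interval of ATF4 lies right of 0 at 11 hpf, that of XBP1 left of 0 at both times, and those of ATF3 and HSP90B1 left of 0 at 19 hpf, while the other 3 intervals cross 0, with the differences between times tested in the text.

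The Activin effect differed between the times for ATF4, ATF3 and HSP90B1. The difference of the log2 fold changes was tested by a Wald test over the 13528 genes in both tables, where 16.8% were called, 10.1% with a higher and 6.70% with a lower effect at 19 hpf. The times share no library. ATF4 had an effect of -0.48 at 19 hpf, against 3.14 at 11 hpf. That is a difference of -3.62 ± 0.50 (Wald test, Benjamini-Hochberg adjusted p = 6.1e-11), with 2.03% of genes further down. For ATF3 the difference was -4.15 ± 1.34 (adjusted p = 0.018), with a wide interval of -6.79 to -1.52 beside its 13.7 normalized counts at 11 hpf. HSP90B1 differed by -1.98 ± 0.61 (adjusted p = 0.012). XBP1 was lower in Activin at both times, and its difference of 1.18 ± 0.55 was not called (adjusted p = 0.13, interval 0.10 to 2.27). At an adjusted p below 0.01, met by 9.76% of genes, the ATF4 difference alone remained of these 3. When genes with a mean under 20 at either time were dropped, ATF3 left the test and 2 of the 3 remaining genes were called, beside 22.4% of genes.

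Of the 13528 shared genes 814 rose at 11 hpf and were not called at 19 hpf, the pair of calls shown by ATF4. The pair shown by ATF3 and HSP90B1, not called at 11 hpf and lower at 19 hpf, was found for 1275 genes. XBP1 was among 2435 genes lower at both times, 18.0% of those shared.

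Levels at 19 over 11 hpf gave larger ratios in control than in Activin explants for ATF3, ATF4 and HSP90B1, and the reverse for XBP1. The gap between the ratios of the groups is the difference of fold changes tested above, not a separate observation. For XBP1 that difference was not called. Because the tables were normalized separately, each group mean was divided by its table's summed mean, given per 1000000, and no test was made between times. In control explants ATF3 stood at 98.5 per 1000000 at 19 hpf and at 1.22 at 11 hpf, an 80.9-fold ratio that 0.355% of shared genes exceeded. That ratio is imprecise, because ATF3 had a rebuilt control mean of 11.1 normalized counts at 11 hpf. Its fold change there had a standard error of 1.29. ATF4 stood at 1318 at 19 hpf and at 21.4 at 11 hpf in control, a 61.7-fold ratio exceeded by 0.510% of genes. Control levels of HSP90B1 were 172 at 19 hpf and 18.2 at 11 hpf, a 9.41-fold ratio exceeded by 5.54% of genes. XBP1 was nearly level in control, at 134 at 19 hpf and 162 at 11 hpf. The median ratio over all shared genes was 1.13.

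Activin explants showed smaller ratios for ATF3, ATF4 and HSP90B1. ATF3 stood at 8.13 per 1000000 at 19 hpf and 1.79 at 11 hpf, a ratio of 4.55, and ATF4 at 946 at 19 hpf and 189 at 11 hpf, a ratio of 5.01. The ATF3 ratio again rests on few counts, 16.3 normalized counts in Activin at 11 hpf. HSP90B1 stood at 35.1 at 19 hpf and 14.8 at 11 hpf, a ratio of 2.38. XBP1 stood at 37.1 at 19 hpf and 19.8 at 11 hpf, a ratio of 1.88, beside a median of 1.22 over shared genes. From low to high, ATF4 ran from control at 11 hpf through Activin at 11 hpf and Activin at 19 hpf to control at 19 hpf, and the last pair was not called different. XBP1 ran from Activin at 11 hpf through Activin at 19 hpf to the controls. ATF3 and HSP90B1 were lowest in both groups of 11 hpf, which were not called different, and highest in control at 19 hpf.

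**Figure D2:**
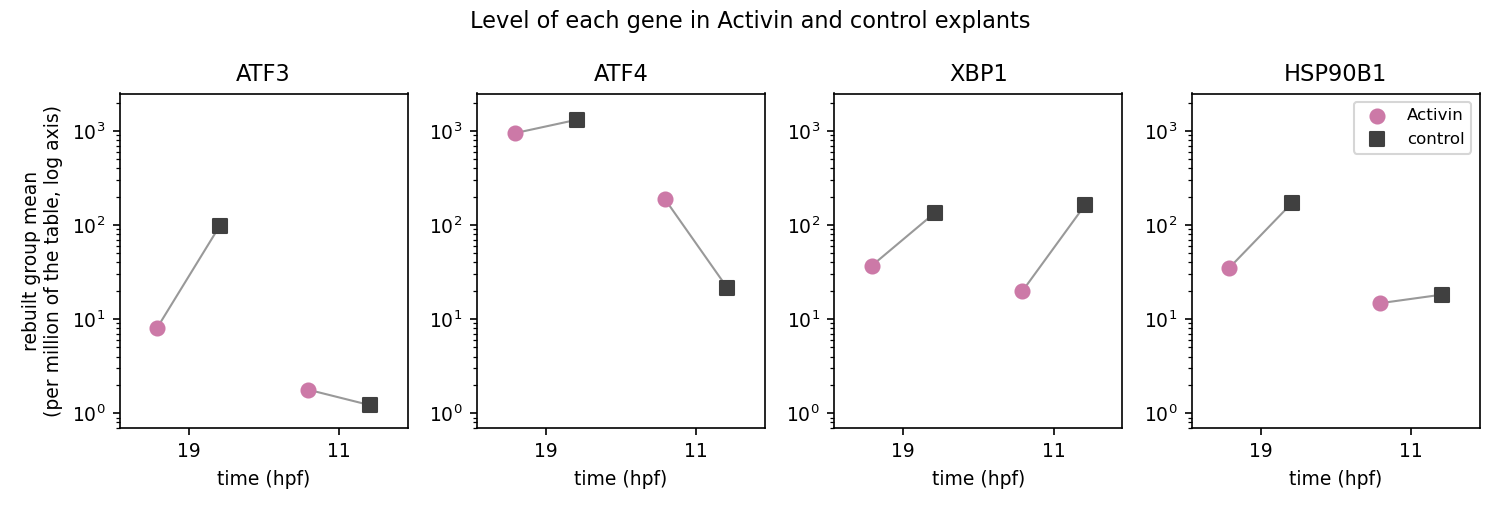
Rebuilt group mean of each gene per 1000000 of its table's summed mean (log axis) at 19 and 11 hpf, with circles for Activin, squares for control and a line joining the groups of 1 time. ATF3, ATF4 and HSP90B1 are highest in control explants at 19 hpf (98.5, 1318 and 172 per 1000000), and ATF4 alone of the 4 genes has its Activin circle far above its control square at 11 hpf (189 against 21.4).

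Rescaling left these calls in place. Over 5 other scalings, under which 46.3% to 53.7% of all genes were called at 19 hpf and 36.5% to 47.1% at 11 hpf, the 5 called values kept sign and call. Over these scalings, which shifted all log2 fold changes at 19 hpf by -1.05 to 0.86 and at 11 hpf by -0.37 to 0.98, ATF4 stayed between 2.77 and 4.12 at 11 hpf and XBP1 between -3.41 and -2.06. At 19 hpf ATF3 stayed between -4.65 and -2.74, HSP90B1 between -3.34 and -1.43 and XBP1 between -2.90 and -0.996. ATF4 at 19 hpf was the exception: it was called lower on ribosomal centring, at -1.53, where 50.9% of genes were called, and stood at 0.06 under upper-quartile and 0.38 under total-count scaling, not called. HSP90B1 at 11 hpf was uncalled throughout, from -0.67 to 0.67.

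**Figure D3:**
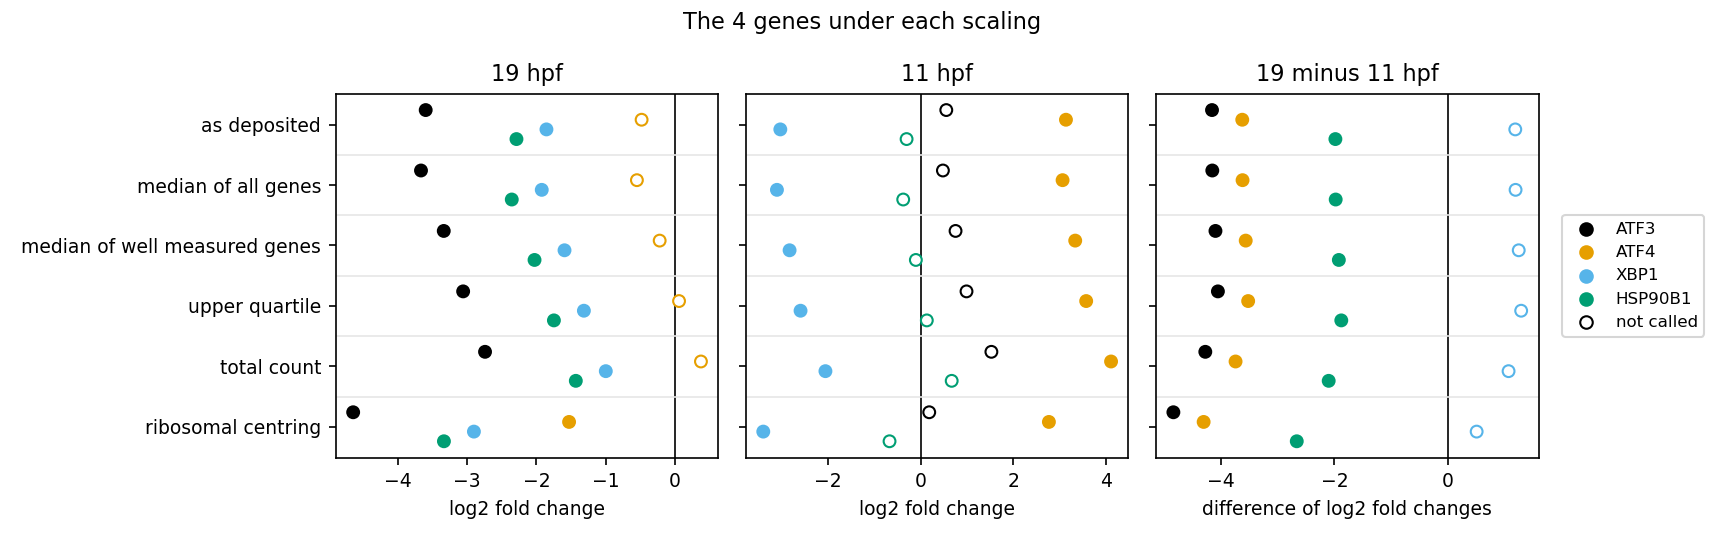
The 4 genes under the deposited values and 5 other scalings (rows), as log2 fold changes of Activin over control at 19 hpf and 11 hpf and as the difference between times; filled points were called at an adjusted p below 0.05 by the Wald test, open points were not. ATF4 at 19 hpf is the value that changes call, being filled at -1.53 on ribosomal centring and open elsewhere.

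Stress sensors and regulators, a list that also holds factors not upstream of the 4 genes, did not move as a block. Among all genes 18.7% were higher and 27.7% lower at 19 hpf, and 12.0% and 24.6% at 11 hpf, with a median of 0.07 at both times. Of 22 measured rows of stress sensors and regulators at 19 hpf 7 rose and 3 fell, with a median of 0.47. Of 20 rows at 11 hpf 4 rose and 2 fell, with a median of 0.48. Under ribosomal centring the split turned to 3 higher and 9 lower at 19 hpf and was 2 and 2 at 11 hpf, and under total-count scaling it was 12 and 1 at 19 hpf and 9 and 1 at 11 hpf. EIF2AK3, the PERK kinase upstream of ATF4, had a pair of rows that behaved alike. BL04937 stood at -1.26 ± 0.41 at 19 hpf and 1.02 ± 0.52 at 11 hpf in the authors' deposited table, and BL16137 at -1.33 ± 0.40 at 19 hpf and 0.91 ± 0.49 at 11 hpf. Both were called lower at 19 hpf (Wald test, adjusted p = 0.006 and 0.003) and neither at 11 hpf (adjusted p = 0.12 and 0.14). These calls at 19 hpf ended under upper-quartile and total-count scaling, where both rows were instead called higher at 11 hpf. EIF2S1, the initiation factor subunit that PERK phosphorylates, rose by 2.86 ± 0.42 at 19 hpf and 1.57 ± 0.61 at 11 hpf in the authors' deposited table.

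For the IRE1 branch, ERN1 had a mean of 6.15 normalized counts at 19 hpf and 3.73 at 11 hpf, too few for a readable fold. Its paralog ERN2 (BL26664), named after its values were seen, stood at -0.70 ± 0.43 at 19 hpf and 0.70 ± 0.48 at 11 hpf in the authors' deposited table, neither called. ATF6 stood at 0.61 ± 0.32 at 19 hpf and -0.10 ± 0.36 at 11 hpf in the authors' deposited table, neither called. Total-count scaling gave 0.88 at 11 hpf, called higher, and at 19 hpf ATF6 was called higher under 3 of 5 scalings, from 0.87 to 1.47. The proteases that release it rose: MBTPS1 (BL04195) by 2.46 ± 0.33 at 19 hpf and 1.24 ± 0.47 at 11 hpf, and MBTPS2 by 1.53 ± 0.49 at 19 hpf and 2.28 ± 0.52 at 11 hpf in the authors' deposited table. The calls of EIF2S1 and MBTPS1 at 11 hpf and of MBTPS2 at 19 hpf were lost on ribosomal centring. CREB3L4, an ER-bound bZIP factor related to ATF6, fell at 19 hpf, with 427 normalized counts in Activin and 1855 in control, and stood at 0.13 ± 0.49 at 11 hpf in the authors' deposited table. NFE2L2, the bZIP factor of the oxidative stress response, rose at 11 hpf, by 2.20 ± 0.36 in the authors' deposited table, and stood at 0.30 ± 0.31 at 19 hpf, or -0.75 and called lower on ribosomal centring and called higher under upper-quartile and total-count scaling. EIF2B3, a subunit of the exchange factor that acts on EIF2, fell at 11 hpf, at -2.16 ± 0.48 in the authors' deposited table. DDIT3 and PPP1R15A, well known effectors downstream of ATF4, were not analysed here, nor was PPP1R15B.

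Other bZIP factors, several of which can pair with ATF3 or ATF4 in mammals, moved both ways. Of 14 rows 2 rose and 5 fell at 19 hpf, with a median of -0.80, and 4 rose and 6 fell at 11 hpf, with a median of -0.49, beside 18.7% of all genes higher and 27.7% lower at 19 hpf and 12.0% and 24.6% at 11 hpf. Total-count scaling gave 3 higher and 3 lower at 19 hpf and 6 and 3 at 11 hpf, and ribosomal centring 1 and 12 at 19 hpf and 3 and 6 at 11 hpf. NRL (BL05196), a bZIP factor of the MAF family, fell at 19 hpf, at -2.31 ± 0.51, and rose at 11 hpf by 3.25 ± 0.56, in the authors' deposited table. Like ATF4 it stood higher in Activin at 11 hpf, with 265 normalized counts in Activin and 27.8 in control. MAFG, a small MAF partner, rose at both times, by 1.02 ± 0.39 at 19 hpf and 2.32 ± 0.52 at 11 hpf in the authors' deposited table, although its 19 hpf value became -0.026 on ribosomal centring. JUN, the AP-1 subunit that can dimerize with ATF3, fell at 11 hpf (-1.66 ± 0.38) and stood at -0.68 ± 0.33 at 19 hpf, not called, in the authors' deposited table. The 11 hpf call of JUN was lost under total-count scaling (-0.68), and at 19 hpf it was called lower on ribosomal centring (-1.73). HLF (BL07260), of the PAR family, fell at both times, at -2.03 ± 0.33 at 19 hpf and -1.77 ± 0.33 at 11 hpf in the authors' deposited table. So did DBP (BL00630), of the same family, at -2.28 ± 0.64 at 19 hpf and -4.30 ± 0.84 at 11 hpf in the authors' deposited table. CREBZF rose at 19 hpf by 2.01 ± 0.41 and stood at -0.37 ± 0.36 at 11 hpf in the authors' deposited table. FOS was not analysed here.

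The chaperones that share the ER lumen with HSP90B1 split at 19 hpf. The shares over all genes were 18.7% higher and 27.7% lower at 19 hpf, and 12.0% higher and 24.6% lower at 11 hpf. Of 55 rows of ER chaperones and folding enzymes 17 rose and 18 fell at 19 hpf, with a median of 0.32. Of 50 rows 3 rose and 7 fell at 11 hpf, with a median of 0.08. Under total-count scaling the split was 27 higher and 6 lower at 19 hpf and 19 and 3 at 11 hpf, and on ribosomal centring 7 and 25 at 19 hpf and 3 and 11 at 11 hpf, so the balance of this list rests on the scaling. HSPA5, the HSP70 of the ER lumen known as BiP, had 456 normalized counts in Activin and 842 in control at 19 hpf. It fell there, at -0.88 ± 0.37 (Wald test, adjusted p = 0.038), and stood at 0.92 ± 0.45 at 11 hpf (adjusted p = 0.10) in the authors' deposited table. The HSPA5 call ended when well measured genes were centred on 0 and under upper-quartile and total-count scaling, from -0.62 to -0.02, and under the same scalings HSPA5 was called higher at 11 hpf, from 1.12 to 1.89, whereas that of HSP90B1 held.

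HYOU1, a large HSP70-like partner of HSPA5, rose at 11 hpf by 2.11 ± 0.49 and stood at 1.01 ± 0.47 at 19 hpf, not called, in the authors' deposited table. CALR, the lectin chaperone calreticulin, fell at both times, at -0.76 ± 0.30 at 19 hpf and -1.48 ± 0.33 at 11 hpf in the authors' deposited table, but the 19 hpf call ended under 3 of 5 scalings, from -0.50 to 0.10, and the 11 hpf call under total-count scaling (-0.50). Its membrane-bound relative CANX rose at 19 hpf by 1.08 ± 0.31 and stood at -0.58 ± 0.33 at 11 hpf in the authors' deposited table; on ribosomal centring its 19 hpf value was 0.03, and it was called lower at 11 hpf. HYOU1 was called higher at 19 hpf under 3 of 5 scalings. The rows of DNAJC3, a cochaperone of HSPA5 that inhibits PERK, fell at 19 hpf, at -1.60 ± 0.60 (BL05045) and -1.37 ± 0.50 (BL21312) in the authors' deposited table, calls that ended under 3 of 5 scalings.

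Among the largest falls in this list at 19 hpf were GANAB (BL12698), glucosidase II, at -4.77 ± 0.60, and FKBP11, a prolyl isomerase, at -4.01 ± 0.62, while DNAJB11 (BL16455), a cochaperone of HSPA5, rose by 3.17 ± 0.39 and FKBP9 (BL20040) by 2.86 ± 0.31 in the authors' deposited table. At 11 hpf GANAB (BL12698) stood at -4.34 ± 0.47 and PPIB (BL95570), a cyclophilin, at -3.78 ± 0.35, both lower, while SDF2, a partner of ER chaperones, rose by 2.07 ± 0.40, again in the authors' deposited table. Other rows named GANAB and PPIB moved the other way at 19 hpf. Another row named DNAJB11 stood at -0.48 at 19 hpf and -0.30 at 11 hpf. Reads shared between such copies could shift counts from row to row.

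ER-associated degradation, which removes proteins that fail to fold, had 5 rows higher and 13 lower of 42 at 19 hpf, with a median of -0.14. At 11 hpf 6 of 41 rows were higher and 7 lower, with a median of 0.14. This compares with 18.7% higher and 27.7% lower of all genes at 19 hpf, and 12.0% and 24.6% at 11 hpf. Total-count scaling turned the counts of the list to 15 higher and 6 lower at 19 hpf and 18 and 3 at 11 hpf. Ribosomal centring gave 0 and 29 at 19 hpf and 5 and 9 at 11 hpf. EDEM1, a mannosidase-like factor that XBP1 activates in mammals, fell at 19 hpf as ATF3 and HSP90B1 did, with 330 normalized counts in Activin and 3389 in control (-3.36 ± 0.32), and stood at -0.26 ± 0.50 at 11 hpf in the authors' deposited table. SYVN1, the ubiquitin ligase HRD1, fell at 19 hpf (-1.33 ± 0.41 in the authors' deposited table), a call lost under upper-quartile and total-count scaling. Its partner SEL1L was lower at 11 hpf in both rows, at -1.30 ± 0.51 (BL06356) and -1.27 ± 0.49 (BL20277) in the authors' deposited table, calls lost under 3 of 5 scalings, and at 19 hpf was called lower on ribosomal centring alone. SVIP, a small inhibitor of this pathway, fell at 19 hpf (-2.94 ± 0.61 in the authors' deposited table). HERPUD2 stood at -1.56 ± 0.38 at 19 hpf and -3.63 ± 0.38 at 11 hpf, and FAM8A1 at -1.40 ± 0.47 at 19 hpf and -2.55 ± 0.52 at 11 hpf, all called lower in the authors' deposited table. VCP, the ATPase that extracts substrates, rose by 1.74 ± 0.32 at 19 hpf and 1.35 ± 0.35 at 11 hpf in the authors' deposited table. The deubiquitinase YOD1 rose by 1.12 ± 0.46 at 19 hpf and 2.22 ± 0.48 at 11 hpf, likewise in the authors' deposited table. ATXN3 rose at 19 hpf (1.86 ± 0.39) and MAN1B1 at 11 hpf (1.91 ± 0.54) in the authors' deposited table. At 19 hpf the calls of VCP, YOD1 and ATXN3 were lost on ribosomal centring, that of HERPUD2 under total-count scaling, and that of FAM8A1 under upper-quartile and total-count scaling.

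**Figure D4:**
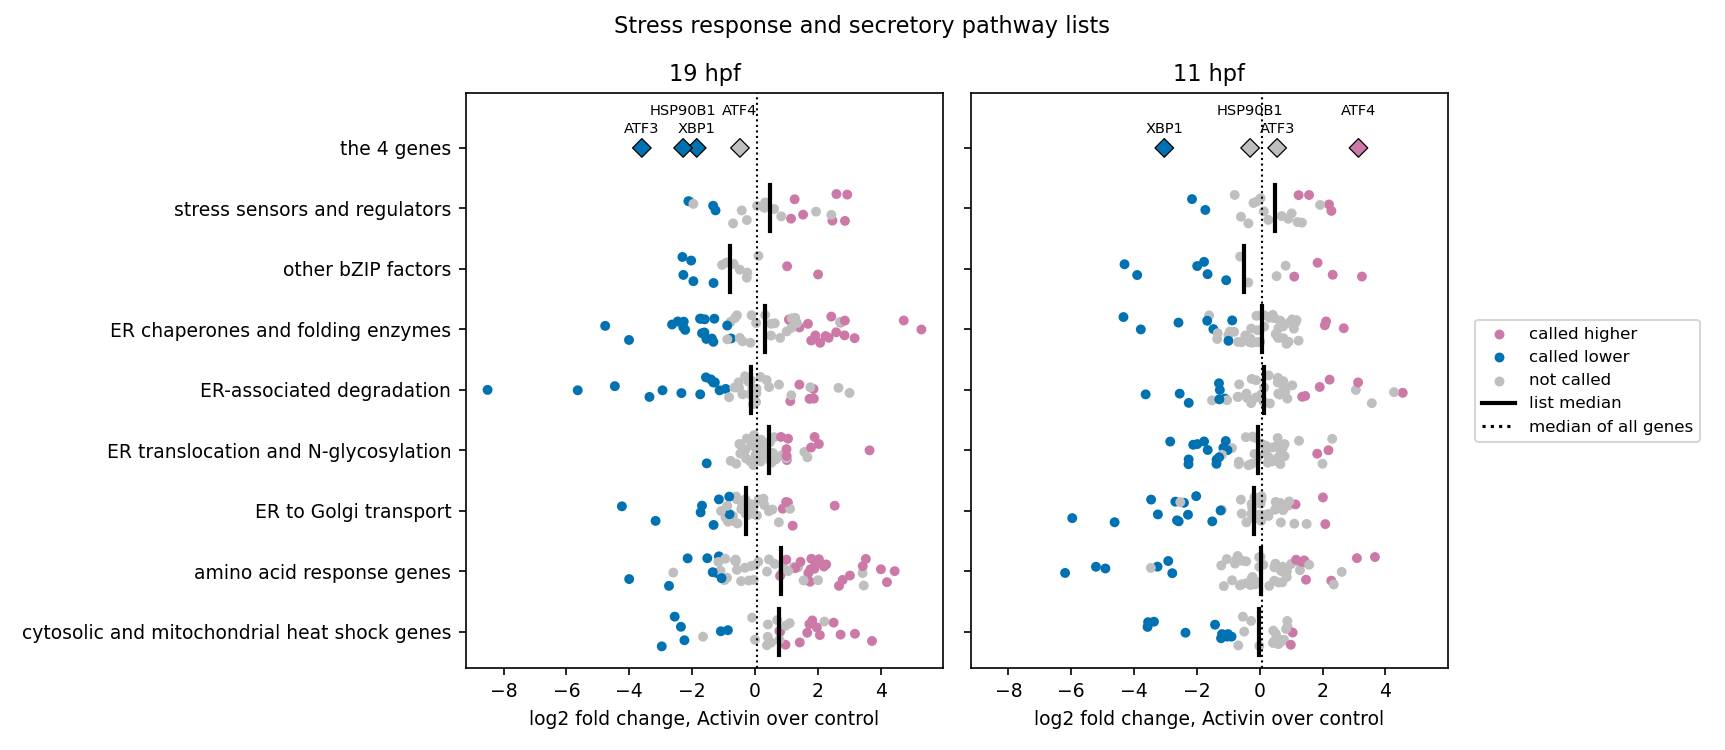
Log2 fold change of Activin over control (x axis) for ATF3, ATF4, XBP1 and HSP90B1 (diamonds) and for every row of 8 pathway lists (points, jittered vertically) at 19 and 11 hpf, coloured by call, with a bar at each list's median and a dotted line at the median of all genes. The 55 rows of ER chaperones hold 17 higher and 18 lower calls at 19 hpf, beside 18.7% and 27.7% of all genes. The median of amino acid response genes at 19 hpf, 0.82, lies right of the dotted line while ATF4 lies left of it.

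Entry into the ER and export from it, functions that XBP1 promotes in mammalian secretory cells, also changed with the scaling. For comparison, 18.7% of all genes were higher and 27.7% lower at 19 hpf, and 12.0% and 24.6% at 11 hpf. ER translocation and N-glycosylation had 9 rows higher and 1 lower of 47 at 19 hpf, with a median of 0.44, and 2 higher and 13 lower of 47 at 11 hpf, with a median of -0.06. On ribosomal centring these were 1 higher and 17 lower at 19 hpf and 2 and 16 at 11 hpf, and under total-count scaling 30 and 0 at 19 hpf and 20 and 5 at 11 hpf. SEC63, of the translocation channel, fell at both times, at -1.54 ± 0.32 at 19 hpf and -2.26 ± 0.34 at 11 hpf in the authors' deposited table, as XBP1 did. ALG13 (BL10050), of glycan assembly, fell at 11 hpf (-2.85 ± 0.55), and ALG13 (BL22808) rose at 19 hpf (2.03 ± 0.46) in the authors' deposited table. DPM1, which makes dolichol-phosphate mannose, rose by 3.65 ± 0.55 at 19 hpf, and DPAGT1, the enzyme that starts glycan assembly, by 1.83 ± 0.59 at 11 hpf in the authors' deposited table. At 19 hpf the call of SEC63 was lost under total-count scaling and that of ALG13 (BL22808) on ribosomal centring.

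ER to Golgi transport had 5 rows higher and 8 lower of 44 at 19 hpf, with a median of -0.29. At 11 hpf 3 of 43 rows were higher and 12 lower, with a median of -0.17. All genes had shares of 18.7% higher and 27.7% lower at 19 hpf, and 12.0% and 24.6% at 11 hpf. Total-count scaling gave 15 rows of the list higher and 3 lower at 19 hpf and 16 and 10 at 11 hpf. Ribosomal centring gave 1 and 34 at 19 hpf and 2 and 14 at 11 hpf. The cargo adaptor gene TMED6 was lower in both rows and at both times, BL28040 at -3.16 ± 0.47 at 19 hpf and -5.97 ± 0.45 at 11 hpf and BL95536 at -1.32 ± 0.38 at 19 hpf and -4.62 ± 0.38 at 11 hpf in the authors' deposited table. TMED9 fell as well, at -1.73 ± 0.31 at 19 hpf and -3.24 ± 0.34 at 11 hpf in the authors' deposited table. GOSR2, a membrane fusion protein, rose by 2.54 ± 0.56 and TMED5 by 1.20 ± 0.47 at 19 hpf in the authors' deposited table. ARCN1, a coat subunit of COPI vesicles, rose by 2.09 ± 0.37 and SEC23IP by 2.01 ± 0.40 at 11 hpf in the authors' deposited table. At 19 hpf ARCN1 stood at 0.11 ± 0.33 in the authors' deposited table and on ribosomal centring at -0.94, called lower, and was called higher under total-count scaling. At 19 hpf the call of TMED6 (BL95536) was lost under upper-quartile and total-count scaling and that of TMED5 on ribosomal centring.

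Genes of the amino acid response, the programme for which ATF4 is best known in mammals, had a higher median at 19 than at 11 hpf. ATF4 itself was called higher at 11 hpf alone on this deposited scale, and whether ATF4 acted on these genes was not tested. Over all genes 12.0% were higher and 24.6% lower at 11 hpf, and 18.7% higher and 27.7% lower at 19 hpf. At 11 hpf, when ATF4 was 8.83-fold higher in Activin, 8 of 55 rows rose and 6 fell, with a median of 0.03. At 19 hpf, when ATF4 was not called, 21 of 58 rows rose and 8 fell, with a median of 0.82. Under total-count scaling the counts were 31 higher and 2 lower at 19 hpf and 21 and 6 at 11 hpf, and on ribosomal centring 11 and 20 at 19 hpf and 6 and 10 at 11 hpf. Of 53 rows in both tables the effect was called higher at 19 than at 11 hpf for 10 and lower for 2, beside 10.1% and 6.70% of all genes. ASNS, asparagine synthetase, was lower in all 3 rows at 11 hpf. The strongest fall was that of BL13938, with 204 normalized counts in Activin and 3270 in control at 19 hpf (-4.00 ± 0.36), and 25.4 in Activin and 1859 in control at 11 hpf (-6.20 ± 0.47) in the authors' deposited table. BL16053 fell by 1.35 ± 0.34 at 19 hpf and by 2.91 ± 0.35 at 11 hpf in the authors' deposited table, the later call being lost under total-count scaling. BL08027 had 1.26 normalized counts in Activin at 11 hpf, under the floor of 3 used here for a readable fold, and was not called at 19 hpf (-0.97 ± 0.67 in the authors' deposited table), save on ribosomal centring (-2.02).

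SLC7A5, a transporter of large neutral amino acids, fell at both times too, at -1.06 ± 0.36 at 19 hpf and -3.25 ± 0.34 at 11 hpf in the authors' deposited table, the later call being lost under 3 of 5 scalings. PYCR1 and ALDH18A1 (BL05641), which make proline, rose by 1.77 ± 0.30 and 3.53 ± 0.59 at 19 hpf in the authors' deposited table. PYCR1 rose by 2.28 ± 0.43 at 11 hpf in the authors' deposited table, when the control mean of ALDH18A1 was under that floor. The glycine transporter SLC6A9 went both ways, BL06534 at 4.20 ± 0.37 at 19 hpf and 3.09 ± 0.40 at 11 hpf and BL13568 at -2.74 ± 0.35 at 19 hpf and -2.78 ± 0.39 at 11 hpf, all called in the authors' deposited table. CHAC1, a glutathione-degrading enzyme that ATF4 induces in mammals, was listed at 19 hpf with 31.2 normalized counts and not called (0.84 ± 0.98 in the authors' deposited table). TRIB3, another such target, was not analysed here.

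Among heat shock proteins outside the ER more rows rose than fell at 19 hpf, when HSP90B1 fell. In the whole set of genes 18.7% were higher and 27.7% lower at 19 hpf, and 12.0% and 24.6% at 11 hpf. Of 31 rows of cytosolic and mitochondrial heat shock genes 13 rose and 6 fell at 19 hpf, with a median of 0.78. Of 29 rows 2 rose and 10 fell at 11 hpf, with a median of -0.01. Ribosomal centring turned the 19 hpf split to 5 higher and 7 lower and gave 0 and 12 at 11 hpf, while total-count scaling gave 19 and 4 at 19 hpf and 12 and 2 at 11 hpf. Of 29 rows in both tables the effect was called higher at 19 hpf for 13 and lower for 2, beside 10.1% and 6.70% of all genes. The called members of the HSP90 family divided by compartment at 19 hpf. TRAP1, the mitochondrial HSP90, had 454 normalized counts in Activin and 50.1 in control at 19 hpf, at 3.18 ± 0.48 in the authors' deposited table, beside -2.29 for HSP90B1. HSP90AA1, the cytosolic form, rose in BL24908, with 22214 normalized counts in Activin and 7019 in control (1.66 ± 0.36), and in BL01197 (1.43 ± 0.58) in the authors' deposited table, both calls lost on ribosomal centring. The HSP90AA1 row BL18399 stood at 0.78 ± 0.50 at 19 hpf, not called, and was lower at 11 hpf (-1.20 ± 0.47) in the authors' deposited table, a call lost under 3 of 5 scalings. Upper-quartile and total-count scaling called it higher at 19 hpf, at 1.32 and 1.64. BL24908 was called higher at 11 hpf under 3 of 5 scalings and BL01197 under total-count scaling.

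Partners of these chaperones were among the named rows. HSPH1, an exchange factor of HSP70, rose by 2.72 ± 0.34 at 19 hpf and 1.05 ± 0.36 at 11 hpf, and HSPA14 by 3.72 ± 0.48 at 19 hpf, in the authors' deposited table. HSPA8 (BL10970), the constitutive HSP70, rose by 0.97 ± 0.34 at 19 hpf and 0.99 ± 0.37 at 11 hpf in the authors' deposited table, and stood at -0.0790 on ribosomal centring at 19 hpf. Another row named HSPA8 had a negative log2 fold change at 11 hpf and a positive one at 19 hpf. DNAJA2, a cochaperone, was higher at 19 hpf (0.78 ± 0.34) and lower at 11 hpf (-1.23 ± 0.34) in the authors' deposited table, with a 19 hpf value of -0.27 on ribosomal centring. BAG4, a regulator of HSP70, fell at both times, at -2.36 ± 0.35 at 19 hpf and -1.42 ± 0.46 at 11 hpf, and DNAJB4 at -2.55 ± 0.54 at 19 hpf and -3.37 ± 1.07 at 11 hpf in the authors' deposited table. At 11 hpf the calls of HSPA8 and HSPH1 were lost on ribosomal centring, those of DNAJA2 and BAG4 under upper-quartile and total-count scaling and that of DNAJB4 under total-count scaling. The 19 hpf call of DNAJA2 also ended when all genes were centred on 0. HSP90AB1 was not analysed here.

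Genes with the most similar pair of Activin effects were sought by the distance between the 2 log2 fold changes of each gene, over 4876 rows with a symbol and a mean of 100 or more at both times. This is a description over 2 comparisons, and most distances were smaller than the errors of the values. Nearest to ATF4 were CKM (BL09597), a creatine kinase, at 0.15, DRAP1, a transcriptional corepressor, at 0.15, and MYLIP, a ubiquitin ligase, at 0.39. Nearest to ATF3 were SNAP91, AMPD2 and MPHOSPH9, at 0.22, 0.26 and 0.28. ATF3 itself had a mean below 100 at 11 hpf and a standard error of 1.29 there, so its place among these rows is uncertain. HSP90B1 lay closest to BBS5, of the ciliary BBSome, at 0.06, TBC1D2B at 0.11 and LRRC46 at 0.15, and XBP1 to LRRIQ3 at 0.03, COG2, of a Golgi tethering complex, at 0.08, and BCAT2, a branched-chain amino acid transaminase, at 0.14. Within a distance of 0.5 there were 6 rows around ATF4 and 5 around ATF3, against 46 around HSP90B1 and 55 around XBP1.

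**Figure D5:**
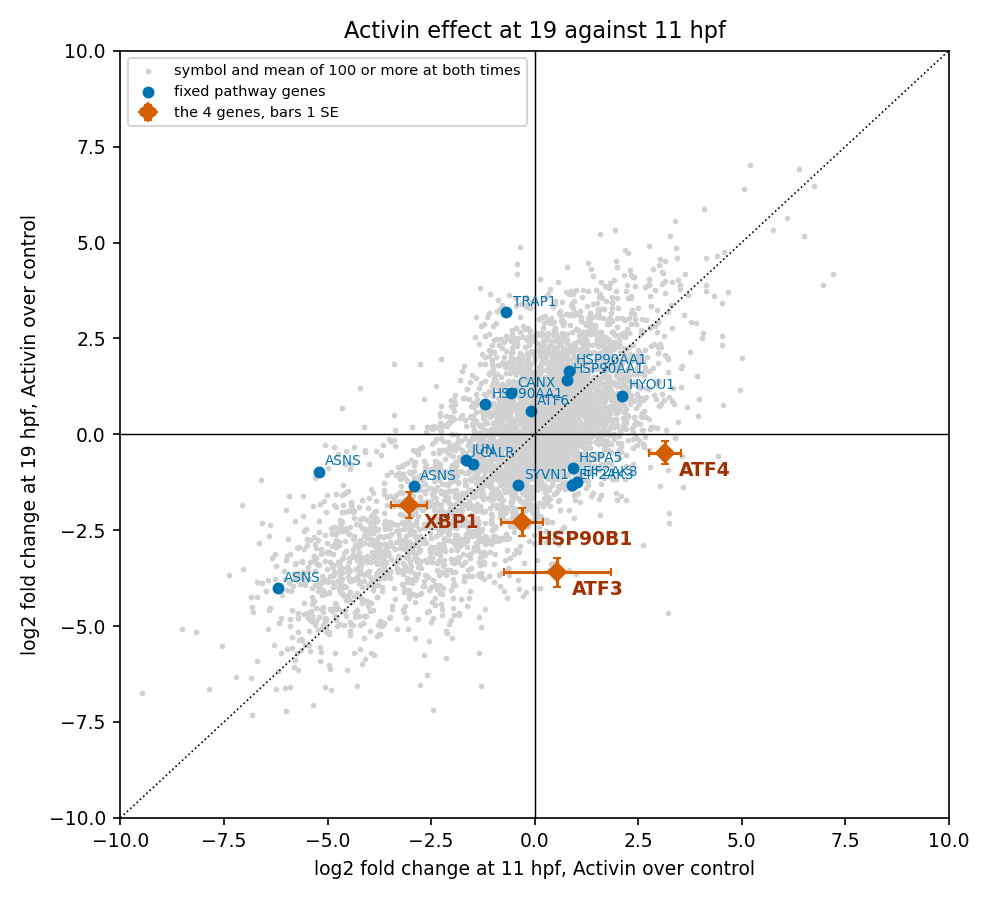
Log2 fold change of Activin over control at 19 hpf (y axis) against that at 11 hpf (x axis) for ATF3, ATF4, XBP1 and HSP90B1 (diamonds, bars of 1 standard error), fixed pathway genes (blue) and the 4876 rows with a symbol and a mean of 100 or more at both times (grey), with a dotted line where both effects are equal. ATF4 stands at the sparse lower right edge of the cloud, with 6 rows within 0.5, and XBP1 inside it with 55. ATF3 has 5 rows within 0.5, but the standard error of its 11 hpf value, 1.29, is larger than that distance.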

How the data were processed

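Libraries of poly(A) RNA from ectodermal explants formed 4 groups of 2, and same-numbered replicates are not tied to a shared fertilization by the labels. HISAT2, featureCounts and edgeR are named in the submitters' processing notes; versions, genome build and annotation are not given in the sources used here. Per the file headers the tables have the columns of a DESeq2 result, and the tool behind the final values is not given in the sources used here. A signal, the authors' mean of depth-normalized counts over both groups, fills the mean column. Fold changes and standard errors are log2 values deposited by the authors. The test column is a score, the deposited Wald statistic, which equalled log2 fold change over standard error in 15793 of 15793 rows at 11 hpf and 16733 of 16733 at 19 hpf, within 1e-06. The deposited p-value columns hold a raw and an adjusted p, the adjusted one equal to a Benjamini-Hochberg adjustment over all rows within 1e-06.

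With no counts per library, no model was refitted. Group means were rebuilt from mean and fold change. For the difference between times the squared standard errors were added, and a Wald test was adjusted by Benjamini-Hochberg over 13528 genes; the code was tested on simulated data. Where a rebuilt group mean was under 3 normalized counts no fold is given. Intervals are 95% normal intervals from the standard errors. Calculations used Python 3.11.15, pandas 2.3.3, NumPy 2.4.6, SciPy 1.17.1 and statsmodels 0.14.6.

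The 4 genes, the 8 pathway lists and the marker lists were chosen with earlier results of these data known. Beside the 4 genes, the text names fixed pathway genes whatever their value and, per list and time, up to 2 called rows in each direction with the largest change among those with a mean of 100 or more; ERN2 was added after its values were seen. Alternatives were an adjusted p below 0.01, genes with a mean of 20 or more only, and 5 scalings: the median of all genes, the median of genes with a mean of 100 or more, the upper quartile and the total of the rebuilt means, and 62 cytosolic ribosomal protein rows. The reference gene table at hand uses another assembly and other identifiers, and no sequence or coordinate is given. Replicates are pools of explants, so p-values refer to the spread between such pools as the authors' model estimated it.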

Additional observations from a re-analysis of the deposited data

Results flagged for a closer look

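The Activin effect differed between 19 and 11 hpf, by the Wald test of the difference with Benjamini-Hochberg adjustment over 13528 genes, for 3 of the 4 genes: ATF3 (-4.15, adjusted p = 0.018), ATF4 (-3.62, adjusted p = 6.1e-11) and HSP90B1 (-1.98, adjusted p = 0.012). The ATF3 value rests on a mean of 13.7 normalized counts at 11 hpf, and ATF3 leaves the test when genes under a mean of 20 are dropped.

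Among the fixed pathway genes the same test called lower effects at 19 than at 11 hpf for EIF2AK3, at -2.27 (BL04937, adjusted p = 0.0068) and -2.24 (BL16137, adjusted p = 0.0048), and for HSPA5, at -1.80 (adjusted p = 0.018). Higher effects at 19 hpf were called for TRAP1, at 3.86 (adjusted p = 1.8e-06), for CANX, at 1.66 (adjusted p = 0.0035), and for HSP90AA1 (BL18399), at 1.98 (adjusted p = 0.028). They were also called for ASNS, at 2.19 (BL13938, adjusted p = 0.0032) and 1.57 (BL16053, adjusted p = 0.012). On ribosomal centring the calls for CANX, HSP90AA1 (BL18399) and both ASNS rows ended.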

How the results depend on the processing

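Counts of the 4 genes called at 19 hpf (3) and 11 hpf (2) changed under 1 of 7 alternatives, ribosomal centring at 19 hpf (4). The count whose effect differed between times, 3, was 1 at an adjusted p below 0.01 and 2 with genes of a mean of 20 or more. Of 1531 values of 74 named rows under an alternative, 1369 kept call or lack of one, 52 of them with a change of sign that was not called, 100 lost a call, 55 gained one and 7 changed sign with a call before or after. Those 7 were ATF6 at 11 hpf (0.88) and CALR at 19 hpf (0.10) under total-count scaling, and at 19 hpf on ribosomal centring MAFG (-0.026), DNAJA2 (-0.27), HSPA8 (-0.0790), NFE2L2 (-0.75) and ARCN1 (-0.94). These follow from the shifts themselves, 0.86 at 19 hpf and 0.98 at 11 hpf for total count and -1.05 at 19 hpf and -0.37 at 11 hpf for ribosomal genes. No paired analysis was possible because the tables hold no values per library, and leaving out replicates and DESeq2 were not run for that reason. Low counts limit ATF3 at 11 hpf, where the standard error of 1.29 compares with a median of 0.42 for genes with a mean of 100 or more.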
